A study of Mus musculus with 2 samples.

Results

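The 10 epithelial genes described here were the keratins Krt7, Krt8, Krt18, Krt19, Krt14 and Krt16, the adhesion molecules Epcam and Cdh1, and the tight junction genes Cldn4 and Cldn7. They were taken by symbol, and each matched 1 of the 32285 genes counted in both libraries. MC38 is a mouse colon carcinoma line, so these genes ask how far its cells keep an epithelial identity after growth in a host. MC38 cells had been injected under the skin of female C57BL/6 mice aged 6 to 8 weeks, either wild type (Lmo7+/+, labelled WT) or carrying a whole-body knockout of Lmo7 (Lmo7-/-, labelled KO). Single live cells sorted from dissociated tumors gave 1 library per host genotype. How many mice entered each library is not given in the sources used here. With 1 library per genotype no difference between genotypes could be tested, and every interval below covers counting error only.

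Keratins are intermediate filament proteins built as pairs of a type I and a type II chain. Krt8 (type II) pairs with Krt18 or Krt19 (type I) in the single-layered epithelium of organs such as the colon, where Krt7 is the other type II chain of this simple class. Krt14 is the type I chain of basal cells in stratified epithelium, where Krt5 is its usual partner, and Krt16 is the type I chain induced in wounded or rapidly renewing skin, where Krt6 chains are its partners. Cdh1 encodes E-cadherin of adherens junctions, Epcam a surface glycoprotein used to sort carcinoma cells, and Cldn4 and Cldn7 claudins that seal tight junctions. Cells that lose these genes and gain Vim, Cdh2 and factors such as Snai1, Zeb1 and Twist1 are called mesenchymal.

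The deposited droplets numbered 16208 with 98582479 UMIs (unique molecular identifiers, 1 per captured transcript) in the Lmo7+/+ library, and 15163 with 80648345 UMIs in the library labelled Lmo7-/-. After filtering, 13542 and 11860 cells remained, of which 6469 and 4980 were tumor cell-like, with a median of 5637 and 5566 UMIs. Class names are rebuilt from cluster markers and, for tumor cells, from a chromosome-wide expression profile, and 9.56% and 7.08% of the cells stayed unnamed. Lmo7 itself had 47 UMIs (1.67 CPM, a gene's UMIs per 1e+06 UMIs of the cells summed) in the named host cells of the Lmo7+/+ library and 34 UMIs (1.25 CPM) in those of the library labelled Lmo7-/-, so its counts did not separate the host genotypes. The tumor cell-like cells, which come from the injected line and not from the host, had it at 19.7 and 15.9 CPM. Which part of the gene was deleted is not given in the sources used here, and reads outside that part would check nothing. The libraries shared 279 barcodes. Of the 175 shared barcodes kept in both, 34.3% had the same class in both libraries, against 29.4% computed from the class shares alone.

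In the tumor cell-like cells, Krt14 and Krt16 were the members at 5 CPM or more in each library, 2 of 10, against 30% of all 32285 genes. Krt14 had 2069 UMIs (35.9 CPM, 95% Poisson interval 34.4 to 37.5) in the Lmo7+/+ library and 1741 UMIs (40.6 CPM, 38.8 to 42.6) in the library labelled Lmo7-/-. Krt16 had 748 UMIs (13.0 CPM, 12.1 to 13.9) and 1016 UMIs (23.7 CPM, 22.3 to 25.2). Both are keratins of stratified epithelium, not of the colon lining. The simple keratins of that lining were far lower, and they differed between the libraries. Krt19 had 300 UMIs (5.21 CPM) in the Lmo7+/+ library and 17 (0.397 CPM) in the other. Krt8 had 174 (3.02 CPM) and 9 (0.210 CPM), and Krt18 had 136 (2.36 CPM) and 2 (0.0467 CPM). Krt7 had 17 UMIs in the Lmo7+/+ library and none in the library labelled Lmo7-/-, where 3 UMIs would be 0.0700 CPM. Epcam had 240 UMIs (4.17 CPM) and 89 (2.08 CPM), and Cdh1 had 42 (0.729 CPM) and 22 (0.514 CPM). Cldn4 had 65 UMIs and none, and Cldn7 had 11 and none. Of the 10 genes that mark epithelium elsewhere, 8 were thus under 5 CPM in at least 1 library of these carcinoma cells.

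**Figure D1:**
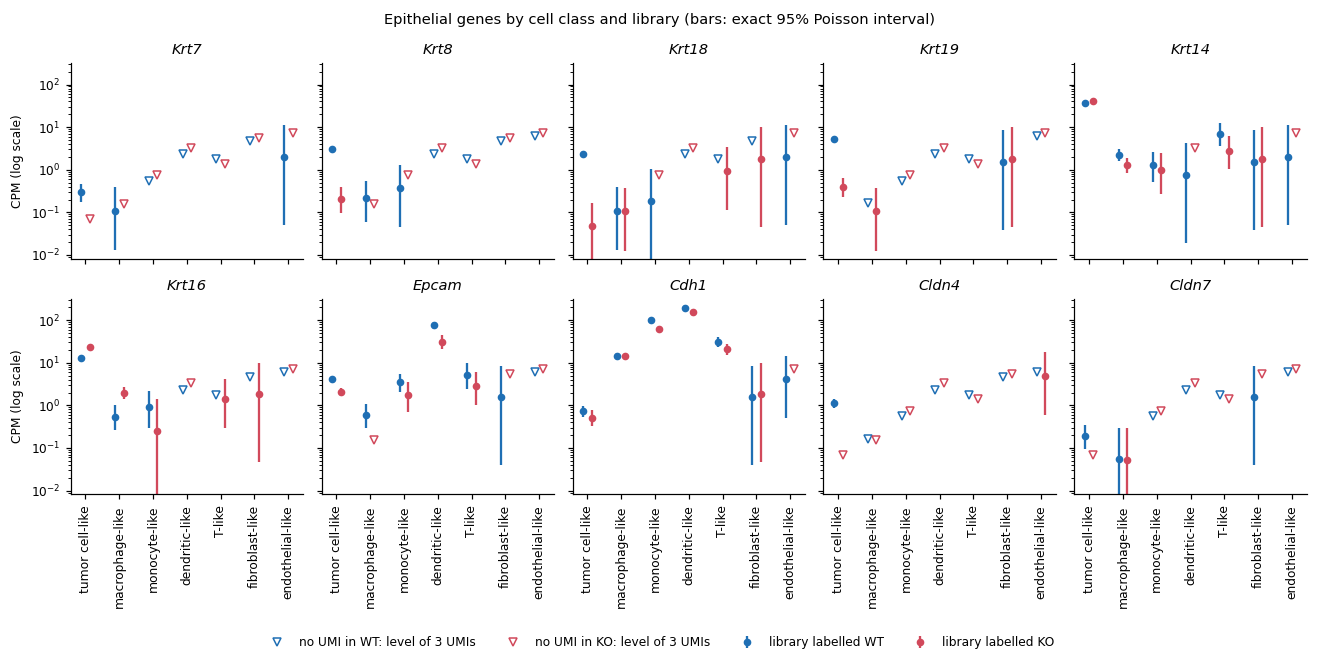
CPM of each of the 10 genes (log scale) in the tumor cell-like cells and 6 host classes, with blue for the library labelled WT and red for the library labelled KO, bars for exact 95% Poisson intervals and open triangles at the level of 3 UMIs where a class had none. Krt14 and Krt16 are highest in tumor cell-like cells, Cdh1 and Epcam in dendritic-like cells.

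Nearly all simple keratin UMIs of the Lmo7+/+ library lay in 8 of its droplets. Over all deposited droplets, Krt7, Krt8, Krt18 and Krt19 together had 671 UMIs in the Lmo7+/+ library, and 622 of them (92.7%) fell in the 8 droplets with at least 5. These 8 held 231, 106, 103, 88, 44, 26, 19 and 5 such UMIs. Among the other droplets of that library the highest count was 3, and 42 droplets had 1. In the library labelled Lmo7-/- the total was 43 UMIs, 39 droplets had 1, 2 had 2, and no droplet had more. The limit of 5 was set after the distribution was seen.

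**Figure D2:**
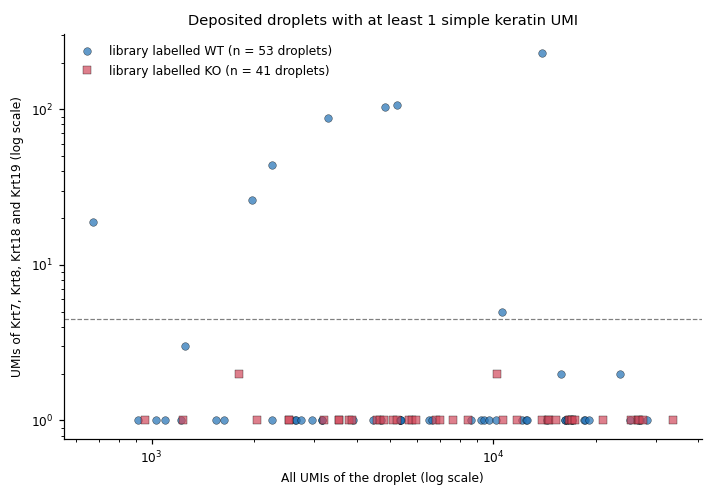
Each point is 1 deposited droplet with at least 1 UMI of Krt7, Krt8, Krt18 or Krt19, placed by all its UMIs (x, log scale) and by its UMIs of these 4 genes (y, log scale), with blue circles for the library labelled WT and red squares for the library labelled KO. The 8 droplets above the dashed line are all from the library labelled WT, and the highest of the library labelled KO has 2.

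These droplets were chosen by their summed simple keratin UMIs, so their high keratin levels follow from that choice. Among genes outside the choice, Epcam and Cldn4 had UMIs in them, and Krt14 had none. Of the 78 other epithelial genes listed below, 40 had a UMI in them, and so did 12 of the 20 mesenchymal genes listed below. The share over all genes was not computed, so these counts do not set the epithelial list apart. The 8 droplets had 42814 UMIs in all, from 672 to 13945 each. Krt8, Krt18 and Krt19 were found in all 8, and Krt7 in 7. Pooled, Krt19 reached 6773 CPM (6016 to 7600), Krt8 4087 CPM (3504 to 4740) and Krt18 3247 CPM (2729 to 3833), so both chain types of the simple keratin pair were present. Epcam had 71 UMIs over 7 droplets (1658 CPM), Cldn4 65 over 5 (1518 CPM), Cdh1 11 over 4 (257 CPM) and Cldn7 4 over 2 (93.4 CPM). Krt16 had 2 UMIs. For Krt14 the 95% upper bound was 86.2 CPM, which still lies above its 37.9 CPM in the remaining tumor cell-like cells, so a difference in Krt14 was not detectable at this depth. In those remaining cells Krt8 had 13 UMIs, Krt18 2, Krt7 2 and Cldn4 none.

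Because these droplets held Krt8, Krt18, Epcam and Cldn4 UMIs, the 250 bases before a RefSeq start (GRCm38.p6) are shown for these genes and for Krt14. Of the 10 members 7 had an entry, and the windows of Krt7 and Cldn7 are not shown. The windows are Krt8 chr15:102004343-102004592 (minus strand), Krt18 chr15:102027966-102028215 (plus), Epcam chr17:87635729-87635978 (plus), Cldn4 chr5:134946935-134947184 (minus) and Krt14 chr11:100206031-100206280 (minus), each written 5′ to 3′. Capitals mark CAGGTG (the E-box that Snail and Zeb factors recognize), GGGCGG (a GC box), TATAAA and TGANTCA (an AP-1 motif), searched on both strands with no overlap between matches.
Krt8: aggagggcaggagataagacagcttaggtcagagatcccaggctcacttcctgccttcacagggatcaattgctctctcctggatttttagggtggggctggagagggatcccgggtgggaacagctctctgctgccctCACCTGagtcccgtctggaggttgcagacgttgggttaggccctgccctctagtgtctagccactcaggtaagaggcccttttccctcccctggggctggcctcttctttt
Krt18: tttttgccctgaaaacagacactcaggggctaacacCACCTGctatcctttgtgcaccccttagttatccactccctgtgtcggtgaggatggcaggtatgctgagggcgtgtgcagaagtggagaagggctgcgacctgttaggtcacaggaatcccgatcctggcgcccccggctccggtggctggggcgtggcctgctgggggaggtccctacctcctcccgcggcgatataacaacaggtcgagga
Epcam: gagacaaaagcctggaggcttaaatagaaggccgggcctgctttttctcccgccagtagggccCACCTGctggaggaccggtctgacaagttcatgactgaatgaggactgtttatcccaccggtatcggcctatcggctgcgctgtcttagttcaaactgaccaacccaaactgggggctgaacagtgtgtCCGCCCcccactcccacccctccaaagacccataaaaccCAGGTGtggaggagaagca
Cldn4: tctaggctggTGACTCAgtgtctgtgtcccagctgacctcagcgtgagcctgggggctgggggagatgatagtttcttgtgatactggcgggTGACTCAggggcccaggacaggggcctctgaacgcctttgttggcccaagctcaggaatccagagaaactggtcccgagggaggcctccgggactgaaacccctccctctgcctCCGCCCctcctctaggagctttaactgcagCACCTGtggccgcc
Krt14: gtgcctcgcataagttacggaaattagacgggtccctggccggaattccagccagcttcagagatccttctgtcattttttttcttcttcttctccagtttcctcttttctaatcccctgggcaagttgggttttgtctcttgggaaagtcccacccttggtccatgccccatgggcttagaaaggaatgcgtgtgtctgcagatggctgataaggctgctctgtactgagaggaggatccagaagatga
CAGGTG or its reverse complement occurred once each in the Krt8, Krt18 and Cldn4 windows and at 2 places in the Epcam window, and 17.2% of all 32851 such windows held it. The Krt14 window held none of the 4 motifs. It lies inside the span of Krt14 in GENCODE (chr11:100203162-100207548, minus strand), not before it. The Krt8 and Krt18 windows overlap the starts of their own spans. GGGCGG occurred in 32.7% of all windows, TATAAA in 12.4% and TGANTCA in 6.75%, so most windows lack each of these. Of the windows not shown, that of Krt7 held CAGGTG at 1 place and 1 of Cldn7 at 2 places. The other Cldn7 window held none of the 4 motifs. A match says only that these letters are there.

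The same droplets carried other genes that the tumor cell-like cells had at low levels. Among genes with at least 30 UMIs in the droplets, chosen after the droplets were seen, those furthest above the remaining tumor cell-like cells included Gpx3 (2312 against 0.458 CPM) and Wfdc2 (2032 against 0.159 CPM), a secreted protein of glandular epithelium. Prlr, the prolactin receptor, had 54 UMIs over 6 droplets, and Krt6a, a type II keratin, had 37 over 5. Of the transcription factors of epithelium, Klf5 had 16 UMIs over 3 droplets (374 against 26.5 CPM), Foxa1 and Elf3 had 8 each over 5 droplets each, and Grhl2 and Ehf had 1 each. Vim was at 1121 CPM (827 to 1486) against 5475 CPM in the remaining tumor cell-like cells, and 44 of its 48 UMIs came from the 1 droplet with 5 simple keratin UMIs. Ptprc, Lyz2 and Pecam1, which mark leukocytes, myeloid cells and endothelium, had no UMI, and neither did the 10 T cell markers or the lists for endothelial, B and mast cells. Xist had 6 UMIs over 2 droplets (140 CPM, 51.4 to 305), 5 of them in 1 droplet. Its level was 2.91 CPM in the remaining tumor cell-like cells and 234 CPM in the named cells of the female hosts. The 12 macrophage markers had 14 UMIs (327 CPM, against 175 in the remaining tumor cell-like cells). The 8 monocyte markers had 42 UMIs (981 against 137 CPM), as many as their member Plac8 alone, and the 9 fibroblast markers had 10 (234 against 1365 CPM). The part of such cells in the droplets was not tested. The 20 genes highest in tumor cell-like over host cells, such as Mmp9, Sox9 and Hmga2, summed to 1869 CPM (1482 to 2326) in the droplets, 5959 CPM in the remaining tumor cell-like cells and 305 CPM in host cells. Of those 80 UMIs, 48 were again from the droplet with 5 simple keratin UMIs. After filtering, 7 of the 8 droplets were kept, none was marked as a doublet by Scrublet, and 6 fell in tumor state 4 and 1 in state 3 (states are described below). That class was assigned to whole clusters, so it does not show that each droplet held a tumor cell, and the droplets are given no cell type name here.

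Between the libraries, 5 members passed a log2 ratio of 1 in size with an interval excluding 0 in the tumor cell-like cells, all lower in the library labelled Lmo7-/-. They were 5 of the 8 members with at least 20 UMIs, against 2.5% of 14135 genes in either direction, 0.969% in this direction and 1.54% in the opposite one, in which no member passed. Krt7 and Cldn7 were under 20 UMIs. With a more lenient cell filter (minimums of 200 genes and 500 UMIs, mitochondrial share up to 25%), 1 member passed, Krt19 at a log2 ratio of -1.38. The log2 ratios (library labelled Lmo7-/- over Lmo7+/+) were -3.85 for Krt8 (-5.00 to -2.89), -5.66 for Krt18 (-8.72 to -3.78), -3.71 for Krt19 (-4.51 to -3.01) and -1.004 for Epcam (-1.37 to -0.65), and Cldn4 was at least 16.1-fold lower. Without the 8 droplets, none of these passed. Krt8 (4 and 9 UMIs), Krt18 (none and 2) and Cldn4 (none in either library) were then under 20 UMIs and could not pass. Krt19 then had 18 and 17 UMIs (log2 ratio 0.34, -0.70 to 1.38), and Epcam 169 and 89 (-0.50, -0.89 to -0.12). The difference in simple keratins and Cldn4 between the libraries rested on these 8 droplets, and whether another sample of either tumor would hold such droplets cannot be told from 1 library each.

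Krt14 and Krt16 were found in many more tumor cells. In the Lmo7+/+ library 936 tumor cell-like cells had a Krt14 UMI and in the other 632, and 144 and 65 cells held 50% of the UMIs. Krt16 was found in 360 and 288 cells, and 62 and 12 cells held 50% of its UMIs. Fewer cells had Krt16 than Krt14 UMIs, so these numbers do not compare concentration among positive cells. In the library labelled Lmo7-/- 1 cell held 344 of the 1016 Krt16 UMIs. After each cell was thinned to 1500 UMIs, which left out 829 and 677 shallower cells, 4.10% (3.59% to 4.65%) and 4.76% (4.15% to 5.44%) of the tumor cell-like cells had a Krt14 UMI, and 14.5% and 12.7% before thinning. In T-like cells, which should lack it and had a median of 2152 and 2208 UMIs, the thinned shares were 0.237% and 0.746%. For Krt16 the thinned shares were 1.81% and 2.09% in tumor cell-like cells, against 0.0974% and 0.142% in macrophage-like cells. Epcam was found in 0.514% and 0.325% of thinned tumor cell-like cells. In macrophage-like cells it was at 0.595 CPM (0.297 to 1.07) and had no UMI in the library labelled Lmo7-/- (upper bound 0.194 CPM), which is below the 4.17 and 2.08 CPM of tumor cell-like cells. In T-like cells it was at 5.24 CPM (2.40 to 9.95) and 2.79 CPM (1.02 to 6.07), from 9 and 6 UMIs, so tumor cell-like cells were not separated from these.

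**Figure D3:**
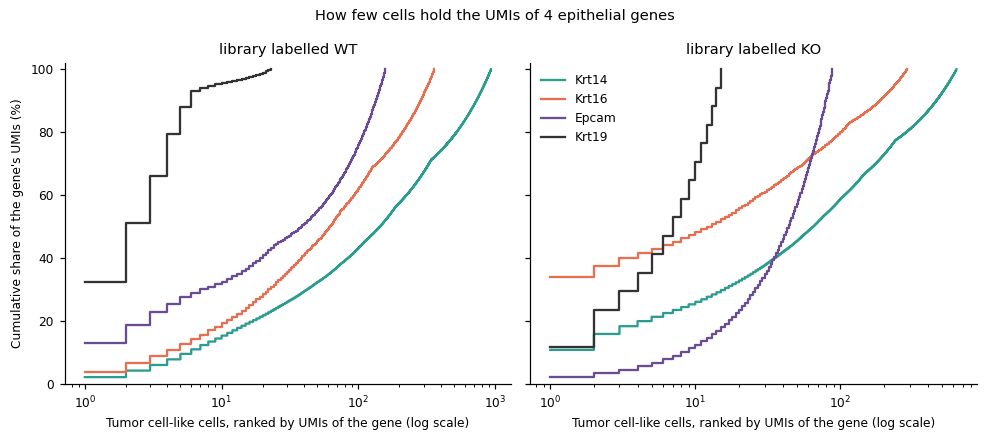
Cumulative share of the UMIs of Krt14, Krt16, Epcam and Krt19 (y, percent) over tumor cell-like cells ranked by their UMIs of that gene (x, log scale), for the library labelled WT (left) and the library labelled KO (right). In the library labelled WT 2 cells hold 50% of Krt19, while 144 are needed for Krt14; in the library labelled KO 1 cell holds 33.9% of Krt16.

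A single cell of the library labelled Lmo7-/- held 344 of its 1016 Krt16 UMIs and 188 of its 1741 Krt14 UMIs. This cell had 17082 UMIs, and Krt16 made up 2.01% of them. It also had 19 UMIs of Krt42, another type I keratin, and none of Krt5, Krt6a or Krt6b, the type II chains that pair with Krt14 and Krt16 in skin. With it, Krt16 was at 23.7 CPM in that library and at a log2 ratio of 0.87 (0.73 to 1.01), and without it at 15.7 CPM and a ratio of 0.27 (0.12 to 0.43). For Krt14 the ratio was 0.18 (0.09 to 0.27) with this cell and 0.01 (-0.08 to 0.11) without it. Over all tumor cell-like cells, neither gene passed the limit of 1 in either case.

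Cells with Krt16 more often had Krt14 too. In the Lmo7+/+ library 148 tumor cell-like cells had both, and Krt14 was found in 41.1% of cells with a Krt16 UMI and in 12.9% of those without. In the library labelled Lmo7-/- 131 had both, at 45.5% and 10.7%. Deeper cells hold more UMIs of either gene, and after thinning the shares were 20.6% against 3.79% and 27.8% against 4.27%. Of the usual type II partners, Krt5 and Krt6b had no UMI in the tumor cell-like cells of either library. Krt6a had 39 UMIs in the Lmo7+/+ library and none in the other, and 4 of these lay outside the 8 droplets.

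The tumor cell-like cells fell into 8 states, clustered without the members and without the gene lists below. Leading genes were Igkc, Ighg2c, Slpi, Mmp10 and Aldoc in state 1, H19, Hist1h1b, Nusap1, Vgll4 and Mki67 in state 2, Tk1, Cdc6, Mybl2 and Tcf19 (DNA synthesis) in state 3, and Cdc20, Ccnb1, Plk1, Hmmr and Ube2c (mitosis) in state 5. State 6 was led by Tnfrsf9, Ero1l, Slc2a1, Ndrg1 and Ankrd37, of which several are induced by low oxygen. State 7 was led by Tex13b, Ido1, Ccl2, Xlr5a and Magohb, and state 8 by Enpp2, Tubb2b, Tnfaip6, Tubb2a and Nrep. State 4 was led by Gm26917, Krt19, Ctss, Il1b and C1qc, held 6 of the 8 droplets, and had a median of 1766 and 2053 UMIs. Its 12 macrophage markers summed to 1039 and 1391 CPM, against 92.4 to 210 CPM in the other states, and their part in its values was not tested.

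**Figure D4:**
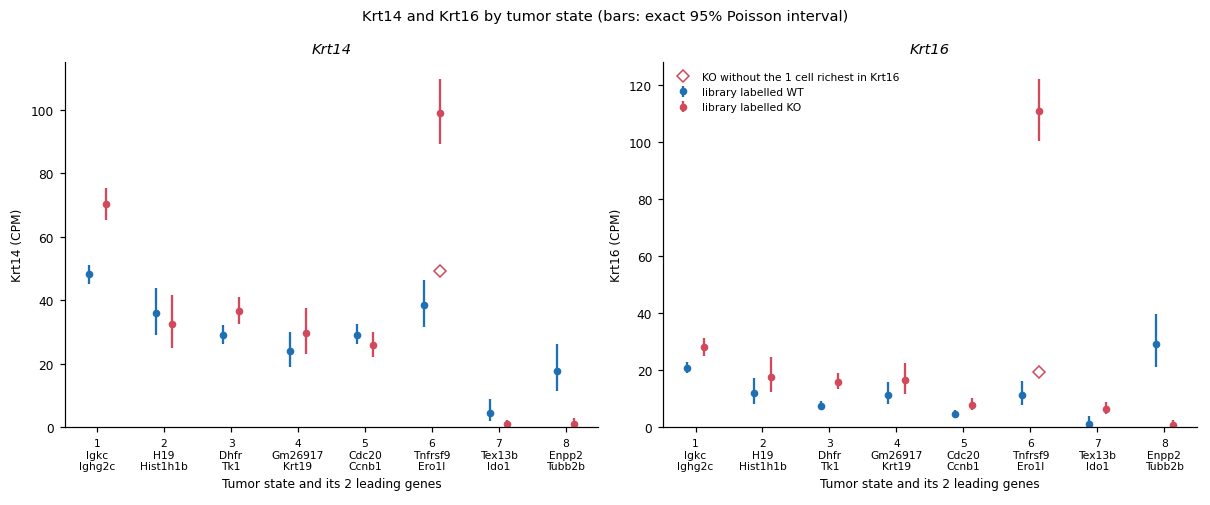
CPM of Krt14 (left) and Krt16 (right) in the 8 tumor states, with blue for the library labelled WT, red for the library labelled KO, bars for exact 95% Poisson intervals and an open diamond for state 6 without the cell richest in Krt16. State 7 is low for both genes, and the high red values in state 6 rest on that 1 cell.

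Krt14 was lowest in states 7 and 8. In the Lmo7+/+ library it was highest in state 1, at 48.2 CPM (45.3 to 51.2), lay between 24.01 and 38.4 CPM in states 2 to 6, and was at 17.8 CPM (11.5 to 26.3) in state 8 and 4.48 CPM (1.93 to 8.82) in state 7. In the library labelled Lmo7-/- it was at 70.2 CPM (65.3 to 75.4) in state 1, at 99.0 CPM in state 6 and 49.3 CPM there without the cell named above, between 26.0 and 36.6 CPM in states 2 to 5, and at 1.20 and 1.17 CPM in states 7 and 8. Without that cell, state 1 was highest in both libraries. Krt16 was at 20.8 and 28.1 CPM in state 1, the state with Mmp10 among its leading genes, and lower in the mitotic state 5, at 4.63 and 7.98 CPM. In state 7 it had 2 UMIs in the Lmo7+/+ library and 38 in the other, 36 of them in 1 cell. In state 8 it was at 29.3 CPM (21.0 to 39.7) in the Lmo7+/+ library, from 10 cells of 173, and at 0.874 CPM in the library labelled Lmo7-/-, from 3 cells of 383. Between the libraries, Krt16 passed the limit in state 3, at 7.41 and 16.05 CPM (log2 ratio 1.11, 0.71 to 1.52), from 60 and 43 cells. It also passed in state 6 (log2 ratio 3.26), in state 7 (2.54, 0.59 to 5.64) and, in the opposite direction, in state 8 (-5.07), and in states 6 and 7 most UMIs of the library labelled Lmo7-/- lay in 1 cell each. The share of all genes passing within a single state was not computed, so how common such passes are is not known. No member had the same highest and the same lowest state in both libraries with a range of at least 2-fold, against 18.5% of 14135 genes.

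In the Lmo7+/+ library Krt8, Krt18, Krt19, Epcam, Cldn4 and Cdh1 were highest in state 4, which held 6 of the 8 droplets. In state 4 of the Lmo7+/+ library Krt19 was at 89.3 CPM, Krt8 at 54.1, Krt18 at 43.2, Epcam at 24.3 and Cldn4 at 20.5 CPM, with no Krt8, Krt18, Krt19 or Cldn4 UMI in the same state of the library labelled Lmo7-/-. Elsewhere Epcam was at 3.58 CPM or lower in every state of both libraries, with 65 of 2044 cells holding its 72 UMIs in state 1. Cdh1 reached 7.04 and 4.66 CPM in state 4, where the macrophage markers were also highest, and was at 3.56 CPM in the Lmo7+/+ library without the droplets, and it was at 1.53 CPM or lower in the other states.

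Across 29 small tumor clusters of at least 50 cells, pooled over the libraries, Krt14 ran from 0 to 121 CPM with a median of 28.6, and Krt16 from 0.367 to 83.1 CPM with a median of 9.87. Among 9848 genes with at least 500 UMIs, the profiles most like Krt14 were those of Fhl2 (Pearson r = 0.92), C1qtnf12 (r = 0.91) and Ninj1 (r = 0.91). Those most like Krt16 were Tmem158 (r = 0.85), Nr4a2 (r = 0.83) and Nr4a1 (r = 0.82), and Krt14 and Krt16 themselves were at r = 0.61. The clusters share libraries and differ in depth, so these values are descriptive.

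In the host, E-cadherin was the member with the highest level, and it lay in leukocytes rather than in tumor cells. In the Lmo7+/+ library Cdh1 was at 197 CPM (174 to 223) in dendritic-like cells, 101 CPM (92.9 to 110) in monocyte-like, 30.9 CPM (23.1 to 40.4) in T-like and 14.7 CPM (13.0 to 16.5) in macrophage-like cells. In the library labelled Lmo7-/- the order was the same, at 152 CPM (127 to 179), 62.5 CPM (55.0 to 70.7), 20.9 CPM (15.3 to 28.0) and 14.1 CPM (12.5 to 15.9). Neighbours in this order had separate intervals, except T-like and macrophage-like cells in the library labelled Lmo7-/-. All 4 classes were above the tumor cell-like cells, at 0.729 and 0.514 CPM. The T-like class was mixed. Its sub-cluster led by Gzma, Klra8, Ncr1, Klrb1b and Klrb1c, mostly natural killer cell markers, had Cdh1 at 110 and 63.9 CPM, from 18 and 7 UMIs. Its Cd3e was at 36.8 and 36.5 CPM, against 1237 and 1435 CPM in the T-like sub-cluster led by Gzmg. The part of that sub-cluster in the place of T-like cells in this order was not tested. Epcam was at 75.7 CPM (61.5 to 92.3) and 31.0 CPM (20.6 to 44.8) in dendritic-like cells, from 98 and 28 UMIs, and at 5.24 CPM or lower in each other host class. Between the libraries, Epcam in dendritic-like cells had a log2 ratio of -1.29 (-1.95 to -0.67) and Cdh1 one of -0.38 (-0.69 to -0.07), and Cdh1 in monocyte-like cells one of -0.70 (-0.92 to -0.48).

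**Figure D5:**
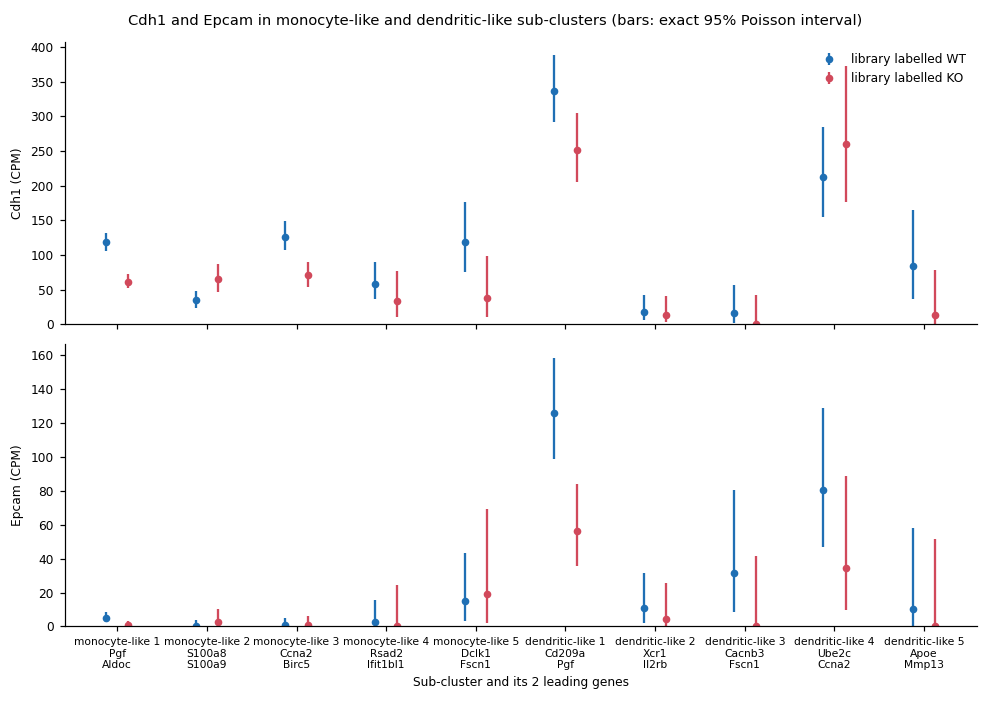
CPM of Cdh1 (top) and Epcam (bottom) in the sub-clusters of monocyte-like and dendritic-like cells, with blue for the library labelled WT, red for the library labelled KO and bars for exact 95% Poisson intervals. In both libraries Cdh1 and Epcam are highest in dendritic-like sub-clusters 1 and 4.

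Within the dendritic-like cells, Cdh1 and Epcam shared their sub-clusters. Sub-cluster 1, led by Cd209a, Pgf, Ptgs2, Mgl2 and Cdh1 itself, had Cdh1 at 337 CPM (291 to 388) and 251 CPM (205 to 305) and Epcam at 126 and 56.1 CPM. Sub-cluster 4, led by the cycling genes Ube2c and Ccna2, had Cdh1 at 213 and 261 CPM and Epcam at 80.3 and 34.7 CPM, from 39 and 18 cells. In sub-cluster 2, led by Xcr1, the marker of type 1 dendritic cells, Cdh1 was at 17.8 and 13.7 CPM. In sub-cluster 3, with Ccr7 at 4187 and 3606 CPM, Cdh1 had 2 UMIs and none. Among monocyte-like cells, sub-cluster 2, led by S100a8 and S100a9, had Cdh1 at 34.7 CPM (24.1 to 48.5) in the Lmo7+/+ library and 64.7 CPM (47.2 to 86.5) in the other, while sub-cluster 1, led by Pgf, had 119 and 61.7 CPM. Sub-clusters 3, 4 and 5 went the way of sub-cluster 1, at 127 and 70.5, 58.5 and 33.0, and 119 and 38.4 CPM, with overlapping intervals in 4 and 5. The direction between the libraries was thus opposite in sub-cluster 2, and that difference was not tested.

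Against all named host cells, 2 members were at a log2 ratio of 2 or more in tumor cell-like cells of each library, Krt14 and Krt16, against 12.6% of 15503 genes. Krt14 was at 2.24 and 1.33 CPM in the host and Krt16 at 0.534 and 1.59 CPM. Within host classes Krt14 was uneven. It was at 12.5 and 7.49 CPM in the macrophage-like sub-cluster led by Sox9, Sox4, Shisal2b, Dclk1 and Fscn1, against 2.25 CPM or lower in each other macrophage-like sub-cluster. Among T-like cells it was at 35.7 and 11.5 CPM, from 10 and 3 UMIs, in the sub-cluster led by Aqp1, Cd63, Col6a1, Ctsl and Cxcl1. Sox9, Shisal2b and Dclk1 are among the 20 genes highest in tumor cell-like over host cells, and the part of tumor RNA in these host values was not tested. Of the 38 Krt16 UMIs in macrophage-like cells of the library labelled Lmo7-/-, 26 lay in 1 cell. The unnamed cells had Krt14 at 25.2 and 24.9 CPM, and the unnamed cluster led by Acta2, Cspg4 and Igfbp6, with 0.650 of the tumor chromosome profile, had 101.7 CPM over 107 cells and 173 CPM over 16 cells.

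Among other epithelial genes, those of adherens junctions were most often detected in tumor cell-like cells. Of 78 further epithelial genes, 16 (20.5%) were at 5 CPM or more in each library, against 30% of all 32285 genes. By group these were 4 of 7 adherens junction genes, 3 of 13 tight junction genes, 2 of 9 desmosome genes, 5 of 16 surface and basement membrane genes, 1 of 12 keratins, 1 of 14 transcription and splicing factors and 0 of 7 intestinal genes. The catenins Ctnnb1 (347 and 311 CPM), Ctnna1 (141 and 135 CPM) and Ctnnd1 (140 and 125 CPM), which link cadherins to actin, led the list. In named host cells these 3 catenins were at 184 and 174, 72.6 and 63.9, and 59.8 and 58.2 CPM. Of the 7 adherens junction genes 0 were at a log2 ratio of 2 or more over host cells in each library. Of all 78 genes 10 were, against 12.6% of 15503 genes. The catenins were followed by Cldn12 (47.6 and 55.8 CPM), the scaffold Tjp1 (29.8 and 29.5 CPM) and the surface protein Cd24a (32.2 and 26.2 CPM). Klf5, a factor of basal and intestinal epithelium, was the detected transcription factor, at 26.0 and 27.7 CPM. The keratin detected was Krt10, at 9.01 and 9.67 CPM. The other 13 transcription and splicing factors, among them Grhl2, Ovol1, Esrp1 and Cdx2, were under 1 CPM in both libraries.

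Mesenchymal genes were detected in nearly the whole list, 19 of 20 at 5 CPM or more in each library, against 30% of all 32285 genes. Vim was at 5443 and 5513 CPM, Sparc at 2076 and 1843, S100a4 at 968 and 1061, Fn1 at 570 and 390, Col1a1 at 395 and 539 and Col3a1 at 362 and 473 CPM. Of the mesenchymal transcription factors, Prrx1 (225 and 215 CPM), Twist1 (144 and 142 CPM), Snai1 (81.8 and 62.6 CPM), Zeb2 (50.3 and 49.0 CPM) and Zeb1 (44.3 and 44.5 CPM) were highest, with Twist2, Snai2 and Foxc2 at 5.98 to 25.6 CPM. N-cadherin (Cdh2) was at 74.8 and 56.7 CPM, against 0.729 and 0.514 CPM of E-cadherin on the same scale. UMI counts of different genes compare molecules captured per gene, and capture can differ between genes. Over named host cells, 8 of the 20 were at a log2 ratio of 2 or more in each library, among them Twist1, Prrx1, Snai1 and Cdh2. This was against 12.6% of 15503 genes. Col1a1 was higher in those host cells, at 665 and 622 CPM, and Col3a1 was at 357 and 351 CPM there. Zeb2 was also higher in host cells in both libraries. Detection alone thus does not set these genes apart as tumor cell traits.

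Between the libraries the medians of these lists were close. The median log2 ratio was -0.06 over the 42 epithelial genes with more than 3 UMIs in each library and -0.03 over the 20 mesenchymal genes. It was -0.04 over all genes with at least 20 UMIs, a minimum that some of the 42 do not reach. Mesenchymal genes that did not pass the limit ran from -0.89 (-0.97 to -0.81) for Cdh11 to 0.45 (0.42 to 0.47) for Col1a1. Among the epithelial genes that passed the limit, Cldn23 was higher in the library labelled Lmo7-/-, at 1.56 against 0.694 CPM, and Krt6a, Elf3 and Spint2 were lower, and the 8 droplets held 37, 8 and 21 of their UMIs. Of the mesenchymal genes Thy1 passed, at 0.798 and 1.73 CPM. Thy1 is also one of the 10 T cell markers and was at 95.4 and 130 CPM in named host cells. The summed T cell markers were at 33.6 and 69.1 CPM in tumor state 4 and between 2.92 and 15.7 CPM in the other states, higher in the library labelled Lmo7-/- in 6 of 8 states, and the part of T cell RNA in the Thy1 value was not tested.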

How the data were processed

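Single-cell RNA-seq of sorted live cells from MC38 tumors was measured in 2 libraries, 1 per host genotype, pooled for sequencing. The matrices hold raw UMI counts per gene and droplet, deposited by the authors after cell calling. The submitters' processing notes name Cell Ranger 2.1.1 and mm10, the matrix header a software version of 3.0.0, and the annotation is not given in the sources used here. The other deposited columns (barcodes of 24 bases, gene names) were used as names.

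Cells with at least 500 genes, 1000 UMIs and at most 15% mitochondrial UMIs were log-normalized to 10000 counts, reduced to 2000 variable genes (members and gene lists left out) and 30 principal components, and clustered with the Louvain algorithm (20 neighbours, resolution 0.5) in Python 3.11.15 with igraph 0.11.9 and scikit-learn 1.9.0. Clusters were named from fixed markers. A cluster was tumor cell-like where its chromosome-wide profile reached 0.8 of that of reference tumor clusters. Those between 0.4 and 0.8, of few UMIs, of mixed markers or of under 50 cells stayed unnamed. The values had been looked at before these naming limits were chosen. Doublets stayed in the main result, and Scrublet (in scanpy 1.11.5) marked 2.82% and 2.37% of cells, which were removed as an alternative.

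UMIs were summed per class and library and scaled to CPM, with exact Poisson intervals (95%). The log2 ratio between libraries used the exact binomial interval of the split of counts, and its limit was applied to genes with at least 20 UMIs. A count of 0 was set to a floor of 3 UMIs over the group, and shares of thinned cells had Clopper-Pearson intervals. PCR duplicates are removed by UMIs, and intervals cover counting error only. No test was run, since a genotype has 1 library. The ratio was tested on simulated data with independent Poisson counts per gene. These leave out the bunching of UMIs in single cells, so they do not check the intervals for it. The alternatives were the filter, doublets, resolution, clustering genes, cells without host UMIs, library size (TMM of edgeR 4.0.16 or without the 10 most abundant genes), per-cell means, the count minimum and the thinning depth. Genes named besides members were the 6 highest of each list, detected transcription factors, 5 leading genes per state and 3 most similar genes per detected member, and others named in the text were chosen after their values were seen. A few genes that this rule selects are not reported here. The members and lists were chosen with earlier results of these data known. Promoter windows come from RefSeq (GRCm38.p6).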

Additional observations from a re-analysis of the deposited data

Results flagged for a closer look

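The direction between the libraries was opposite for Krt14 and for Krt16 in 2 tumor states, which was not tested, as each state has 1 library per genotype. For Krt14 the log2 ratio (library labelled Lmo7-/- over Lmo7+/+) was 1.37 (1.06 to 1.69) in state 6 and -3.94 (-5.92 to -2.40) in state 8. For Krt16 it was 3.26 (2.75 to 3.82) in state 6 and -5.07 (-7.40 to -3.42) in state 8. Without the 1 cell richest in Krt16, the values in state 6 were 0.36 (0.01 to 0.72) for Krt14 and 0.76 (0.14 to 1.40) for Krt16. State 8 rested on 25 Krt14 UMIs in 14 cells and 41 Krt16 UMIs in 10 cells of the Lmo7+/+ library, and its Col3a1 was at 1989 and 2970 CPM.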

How the results depend on the processing

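The number of members detected in tumor cell-like cells stayed at 2 under each alternative run, and the counts over host cells (2 to 3) and of detected epithelial (15 to 18) and mesenchymal list genes (19) stayed within 1.5 times. The number of members past the limit between the libraries was 5, and 1 (Krt19) with the lenient cell filter, where the cause was not tested. It was 0 without the 8 droplets rich in simple keratins and 0 without these and the cell richest in Krt16, alternatives chosen after seeing the data. In both, Krt8, Krt18 and Cldn4 were under the minimum of UMIs and could not pass. The number of members varying between states was 0, and 2 with the strict filter (Krt14 and Krt16), 1 with doublets removed, 1 at resolution 1.0, 1 with members and lists used for clustering (Krt14 each) and 1 in tumor cells without host UMIs (Krt16). The log2 ratio turned direction without the 8 droplets for Krt8 (1.60) and Krt19 (0.34), and without both for Krt8 (1.60) and Krt19 (0.26), each with few UMIs left. Leaving out cells with barcodes found in both libraries changed no count. No paired analysis was possible because each genotype has 1 library and no test was run, and leaving out a replicate would leave no library. Depth limits members at few UMIs most.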
